A study of Mus musculus with 8 samples.

Results

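Mature B cells and plasma cells are followed here through 9 genes: Ms4a1, Cd79a, Cd79b, Cd22, Cd37, Pou2af1, Ighm, Igha and Jchain. Every probe set annotated to 1 of these genes and to no other was taken, which gave 24 of the 22690 probe sets on the array and 9 of its 12393 named genes. Ighm had 11 of these probe sets, Igha had 3, Ms4a1, Cd22 and Cd37 had 2 each, and the other genes had 1 each. Of the 24 probe sets 21 passed the filter on low values, and the 3 that did not were all Ighm probe sets. Every gene had at least 1 tested probe set.

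The study measured RNA of CD45+/Sca1+ cells of C57BL/6 mice aged 6 to 8 weeks on 8 arrays, in 4 groups of 2. CD45, made from Ptprc, marks leukocytes, and Sca1 marks mouse stem and progenitor cells as well as many activated or mature lymphocytes. The cells came from the bone marrow, from uninjured muscle, from muscle of untransplanted mice injured with cardiotoxin (injured muscle below), and from muscle injured in the same way in bone marrow transplanted mice (transplanted injured muscle below). Cardiotoxin is a snake venom component that kills muscle fibres and is followed by an influx of leukocytes and by regeneration. All groups share the strain, the age range and the sort. The sources used here give neither the time after injury, the conditioning of the transplanted mice nor the share of donor cells. Nothing in the labels tells whether the 2 arrays of a group came from separate animals, so the p-values cover the spread between arrays only, which may be technical. In RNA of a sorted population, fewer cells of a type and less RNA per cell cannot be told apart.

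A B cell recognises antigen through surface immunoglobulin, whose heavy and light chains carry no signalling tail of their own. The partner proteins made from Cd79a and Cd79b transmit the signal, Cd22 damps it, and the tetraspan protein of Ms4a1 (CD20) sits beside the receptor. When B cells become plasma cells they lose much of this surface apparatus and secrete antibody instead. IgM and IgA are secreted as polymers that are held together by the joining chain made from Jchain.

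For 5 of the 9 genes a RefSeq window around the transcription start site was at hand, and these windows are shown to set the start regions of the receptor, coactivator and joining chain genes beside their levels. Each window runs from 250 bases before the start site to 50 bases after it, on the gene's own strand, in build GRCm38.p6. Capitals mark matches, on either strand, to 4 short motifs of factors known from B cells: the octamer ATGCAAAT bound by the partners of the Pou2af1 protein, CCCNNGGG of the Ebf1 type, GAGGAA of the Spi1 type, and the E-box CAGNTG. The Cd79a window is chr7:24897247-24897546 (plus strand), Cd22 is chr7:30878979-30879278 (minus), Cd37 is chr7:45238790-45239089 (minus), Pou2af1 is chr9:51213440-51213739 (plus) and Jchain is chr5:88527848-88528147 (minus). On the minus strand the annotated Cd22 gene begins at 30880342 and the Cd37 gene at 45239340. Both windows end short of these positions, so their start sites lie inside the annotated genes. Motif positions in these windows are counted from the inner sites. The 4 genes without a window are Ms4a1, Cd79b, Ighm and Igha.
Cd79a: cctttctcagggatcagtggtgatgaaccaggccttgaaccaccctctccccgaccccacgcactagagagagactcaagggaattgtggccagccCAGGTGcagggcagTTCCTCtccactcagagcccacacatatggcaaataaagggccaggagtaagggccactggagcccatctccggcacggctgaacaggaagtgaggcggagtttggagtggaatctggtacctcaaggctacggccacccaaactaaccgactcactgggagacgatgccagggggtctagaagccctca
Cd22: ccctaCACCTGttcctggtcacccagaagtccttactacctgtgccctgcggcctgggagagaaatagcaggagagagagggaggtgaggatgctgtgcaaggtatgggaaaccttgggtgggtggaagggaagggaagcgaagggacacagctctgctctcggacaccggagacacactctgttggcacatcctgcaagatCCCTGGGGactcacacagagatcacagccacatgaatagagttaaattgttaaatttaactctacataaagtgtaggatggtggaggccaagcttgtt
Cd37: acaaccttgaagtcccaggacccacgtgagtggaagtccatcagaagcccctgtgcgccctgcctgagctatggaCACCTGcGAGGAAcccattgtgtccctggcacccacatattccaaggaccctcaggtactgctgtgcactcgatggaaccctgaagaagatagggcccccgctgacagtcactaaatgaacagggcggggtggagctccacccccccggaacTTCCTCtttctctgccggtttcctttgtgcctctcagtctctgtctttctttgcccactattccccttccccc
Pou2af1: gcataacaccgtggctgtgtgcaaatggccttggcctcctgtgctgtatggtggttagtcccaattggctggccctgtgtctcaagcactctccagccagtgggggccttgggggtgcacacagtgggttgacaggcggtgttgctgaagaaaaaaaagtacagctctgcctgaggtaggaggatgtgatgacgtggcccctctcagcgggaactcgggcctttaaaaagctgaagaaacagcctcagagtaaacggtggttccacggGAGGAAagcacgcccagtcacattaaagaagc
Jchain: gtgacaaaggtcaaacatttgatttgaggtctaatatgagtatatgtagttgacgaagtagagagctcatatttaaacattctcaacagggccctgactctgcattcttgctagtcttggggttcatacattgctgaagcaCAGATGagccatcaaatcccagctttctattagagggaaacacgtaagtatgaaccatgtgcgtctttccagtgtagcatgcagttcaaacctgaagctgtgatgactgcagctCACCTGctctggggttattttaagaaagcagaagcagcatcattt

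The octamer was in 0 of the 5 windows and in 1.74% of all 32851 windows of this length. CCCNNGGG was in 1 of 5, the Cd22 window, against 13.7% of all windows. GAGGAA was in 3 of 5 (Cd79a, Cd37 and Pou2af1), against 28.3%, and CAGNTG was in 4 of 5 (all but Pou2af1), against 51.4%. In the Cd79a window the E-box lay at -154 and the Spi1-type match at -140 from the start site, 2 matches that do not overlap. In the Cd37 window the E-box at -175 ended just before the GAGGAA at -168. A match of letters is a description of the window and not a binding site, and the arrays hold no measurement of factor binding.

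Values are intensities on a linear scale, and each array had been scaled to a common trimmed mean by the authors. Median intensities over all probe sets were between 56.3 and 75.8 on the 8 arrays, and arrays of 1 group correlated at 0.895 to 0.950 on the log2 scale. Ptprc, the sort marker, was at 4924 to 6996 on every array. The 3′ to 5′ ratio of the Gapdh control probe sets, used to judge RNA integrity, differed between the groups: bone marrow had 24.4 and 10.7, uninjured muscle had 46.9 and 13.6, and the 4 injured arrays had 0.808 to 0.882. The same ratio for actin was 5.75 and 5.68 in marrow, 19.03 and 10.1 in the uninjured tissue, and 1.18 to 1.23 on the 4 injured arrays. All comparisons of an injured with an uninjured group thus also cross this difference in RNA integrity, and its part in the results was not tested. Uninjured muscle against bone marrow crosses a smaller difference, since the actin ratios of these groups do not overlap. Between the injured groups both ratios were close. Within uninjured muscle replicate 1 had the higher ratio for both controls. The part of this in the gaps between the uninjured muscle replicates was not tested. A value of 38.4, the 40th percentile of all intensities, served as the filter. Where the lower group had both arrays under this value, a fold is given as "at least", computed against 38.4, which is not a detection limit.

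Ms4a1, on chromosome 19, encodes CD20, a surface protein of B cells that is lost on plasma cells. Its brighter probe set, 1423226_at, measured 3483 and 3929 in marrow, 2034 and 1677 in uninjured muscle, 19.7 and 12.3 in injured muscle, and 35.7 and 8.88 in transplanted injured muscle. All 4 uninjured arrays were at 1677 or more and all 4 injured arrays were under 38.4. Against uninjured muscle Ms4a1 fell at least 43.7-fold in injured muscle (limma log2 fold change -6.56, SE 0.52, adjusted p = 0.000638) and at least 43.7-fold in transplanted injured muscle (adjusted p = 0.000408). The difference between uninjured muscle and bone marrow, -1.0 (SE 0.52) on the log2 scale, did not pass (limma adjusted p = 0.35), although both muscle arrays lay under both marrow arrays. The other Ms4a1 probe set had the same order of uninjured and injured arrays, since bone marrow had 877 and 529, uninjured muscle had 278 and 361, and the 4 injured arrays had 0.65 to 11.7.

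Cd79a, on chromosome 7, encodes the signalling partner Ig-alpha of surface immunoglobulin. Its probe set, 1418830_at, measured 1242 and 3269 in marrow, 95.4 and 1179 in uninjured muscle, 2.41 and 1.68 in injured muscle, and 37.7 and 16.1 in transplanted injured muscle. The replicates of uninjured muscle differed 12.4-fold, the widest gap of any member's representative probe set within a group in which both arrays were above 38.4. Cd79a was at least 8.09-fold lower in injured than in uninjured muscle (limma log2 fold change -5.83, SE 1.04, adjusted p = 0.007) and at least 8.09-fold lower in transplanted injured muscle (adjusted p = 0.0328). The bound of 8.09 rests on unequal arrays: from replicate 1 of uninjured muscle alone it was 2.35, and from replicate 2 alone 27.9. The second call was lost without replicate 2 of uninjured muscle (limma adjusted p = 0.0624) and the first without replicate 2 of injured muscle (adjusted p = 0.05004). Uninjured muscle and bone marrow did not overlap, but the difference of -2.56 (SE 1.04) did not pass (limma adjusted p = 0.227).

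Cd79b, on chromosome 11, encodes the other partner, Ig-beta. Its probe set, 1417640_at, measured 3030 and 3161 in marrow, 330 and 806 in uninjured muscle, 119 and 106 in injured muscle, and 76.7 and 40.01 in transplanted injured muscle. The 4 groups did not overlap, in that order from high to low. Cd79b was 5.95-fold lower in uninjured muscle than in bone marrow (limma adjusted p = 0.0176) and 4.47-fold lower in injured than in uninjured muscle (adjusted p = 0.0149). Leaving out either array of bone marrow ended the first call and leaving out either array of injured muscle ended the second (limma adjusted p = 0.0787 to 0.105). Between the injured groups the log2 difference was -0.97 (SE 0.48) and did not pass (limma adjusted p = 0.67). Unlike Cd79a, its partner in the same complex, Cd79b stayed at or above 38.4 on all 8 arrays.

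Cd22, on chromosome 7, encodes a sialic acid-binding lectin that inhibits B cell receptor signalling. Its brighter probe set, 1419768_at, measured 2497 and 3399 in marrow, 1217 and 2228 in uninjured muscle, 354 and 385 in injured muscle, and 254 and 247 in transplanted injured muscle. The groups again did not overlap. Cd22 was 4.42-fold lower in injured than in uninjured muscle (limma log2 fold change -2.14, SE 0.34, adjusted p = 0.00494) and 6.49-fold lower in transplanted injured muscle (adjusted p = 0.00151). The other Cd22 probe set was dim, with 44.6 and 72.3 in marrow, 2.54 and 54.0 in uninjured muscle, 61.0 and 74.1 in injured muscle, and 82.4 and 96.7 in transplanted injured muscle. With both probe sets averaged, the Cd22 difference between injured and uninjured muscle was -0.14 and did not pass (limma adjusted p = 0.883), so the call rests on the brighter probe set.

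Cd37, on chromosome 7, encodes a leukocyte tetraspanin that is abundant on B cells and also present on other blood cells. Its brighter probe set, 1419206_at, measured 1819 and 2286 in marrow, 207 and 1027 in uninjured muscle, 893 and 517 in injured muscle, and 926 and 952 in transplanted injured muscle. Both injured groups lay between the 2 uninjured muscle arrays, and bone marrow lay above all other arrays. None of the 6 comparisons passed for Cd37 with all 8 arrays: the log2 difference was 0.55 (SE 0.65) between injured and uninjured muscle (limma adjusted p = 0.547) and -2.13 (SE 0.65) between uninjured muscle and bone marrow (adjusted p = 0.114). Against bone marrow a lower level passed in 4 of 19 alternatives for injured muscle (limma adjusted p = 0.0028 to 0.0192) and in 3 for transplanted injured muscle (adjusted p = 0.01 to 0.0139). Without replicate 2 of uninjured muscle, uninjured muscle against bone marrow passed too (-3.28, limma adjusted p = 0.000644). The sign against uninjured muscle depends on which uninjured array is kept: without replicate 1 the difference of injured muscle was -0.59, and without replicate 2 it was 1.70. The other Cd37 probe set was between 112 and 147 on all muscle arrays, and bone marrow had 114 and 443.

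Pou2af1, on chromosome 9, encodes the coactivator OCA-B, which partners octamer-binding factors in B cells. Its probe set, 1416957_at, measured 1651 and 1443 in marrow, 634 and 600 in uninjured muscle, 2.77 and 0.81 in injured muscle, and 29.3 and 19.8 in transplanted injured muscle. Its replicates were close in both uninjured groups, and all 4 injured arrays were under 38.4. Pou2af1 was at least 14.7-fold lower than in uninjured muscle in injured muscle (limma log2 fold change -6.74, SE 0.35, adjusted p = 0.000162) and at least 14.7-fold lower in transplanted injured muscle (adjusted p = 0.000389). Uninjured muscle against bone marrow gave -1.32 (SE 0.35), which did not pass (limma adjusted p = 0.0756).

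**Figure D1:**
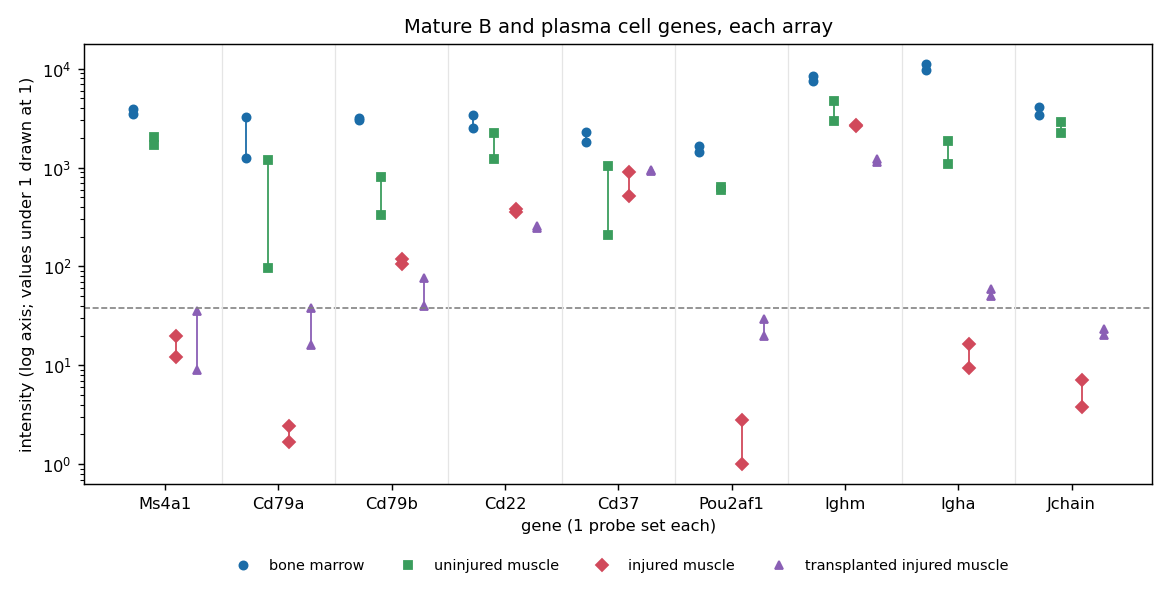
Intensity (log axis) of each of the 9 genes by its probe set with the highest mean, 1 point per array, with a line between the 2 arrays of a group and a dashed line at 38.4. Ms4a1, Cd79a, Pou2af1 and Jchain lie under the dashed line on all 4 injured arrays, while Cd37 and Ighm stay at 517 or more on all 4.

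The immunoglobulin heavy chain genes Ighm and Igha lie on chromosome 12, where Ighm (chr12:113418826-113422730 in GRCm38.p6) is used first and Igha (chr12:113256204-113260236) is reached by class switching. Their probe sets may share sequence with other immunoglobulin genes, so each signal is that of the probe set and its assignment to 1 gene is uncertain. For Igha, the constant region of IgA, the brightest probe set, 1425763_x_at, measured 9766 and 11157 in marrow, 1854 and 1094 in uninjured muscle, 16.5 and 9.34 in injured muscle, and 50.7 and 58.5 in transplanted injured muscle. The groups did not overlap, and the injured arrays were the lowest. Igha was 7.31-fold lower in uninjured muscle than in bone marrow (limma adjusted p = 0.00352) and at least 33.7-fold lower in injured than in uninjured muscle (adjusted p = 0.000198). Against bone marrow it was at least 246-fold lower in injured muscle (limma adjusted p = 1.49e-05). The other Igha probe sets had the same order of marrow, uninjured muscle and injured arrays: 9078 and 9579, then 990 and 945, then 40.3 to 85.5 for the first, and 6803 and 8329, then 2570 and 982, then 10.9 to 61.6 for the second.

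The 11 probe sets of Ighm, the constant region of IgM, disagreed with each other. The brightest, 1427351_s_at, measured 7461 and 8383 in marrow, 2970 and 4706 in uninjured muscle, 2717 and 2645 in injured muscle, and 1216 and 1131 in transplanted injured muscle. It was 2.11-fold lower in uninjured muscle than in bone marrow (limma adjusted p = 0.0423), and the difference of -0.48 (SE 0.25) between injured and uninjured muscle did not pass (adjusted p = 0.179). The first call was lost under most alternative settings, and the second difference passed without replicate 1 of uninjured muscle (-0.81, limma adjusted p = 0.0212). In transplanted injured muscle it was 3.18-fold lower than in uninjured muscle (limma adjusted p = 0.00258). The next brightest, 1427329_a_at, had the same feature, with 6983 and 6405 in marrow, 884 and 2513 in uninjured muscle, 1218 and 1212 in injured muscle, and 507 and 417 in transplanted injured muscle. These were the 2 of 11 Ighm probe sets above 400 on all 4 injured arrays.

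The other 9 Ighm probe sets were under 100 on all 4 injured arrays, and 4 of them were under 100 on all 8. The remaining 5 were bright in the uninjured groups and set apart by replicate 2 of uninjured muscle. The probe set 1427870_x_at measured 1778 and 2172 in marrow, 1017 and 9895 in uninjured muscle, 35.7 and 48.3 in injured muscle, and 33.6 and 58.8 in transplanted injured muscle. Probe set 1425324_x_at had 662 and 427 in bone marrow, 242 and 5899 in the uninjured tissue, and 2.09 to 15.3 after injury. In these 5 probe sets replicate 2 of uninjured muscle was 6.61- to 30.7-fold above replicate 1, while the bone marrow replicates were within 1.55-fold of each other. Replicate 1 lay under both bone marrow arrays and replicate 2 above both in each of the 5. With all 11 probe sets averaged, the Ighm difference between uninjured muscle and bone marrow was -0.01 and did not pass (limma adjusted p = 0.993), and that between injured and uninjured muscle was -3.03 and passed (adjusted p = 0.0137).

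**Figure D2:**
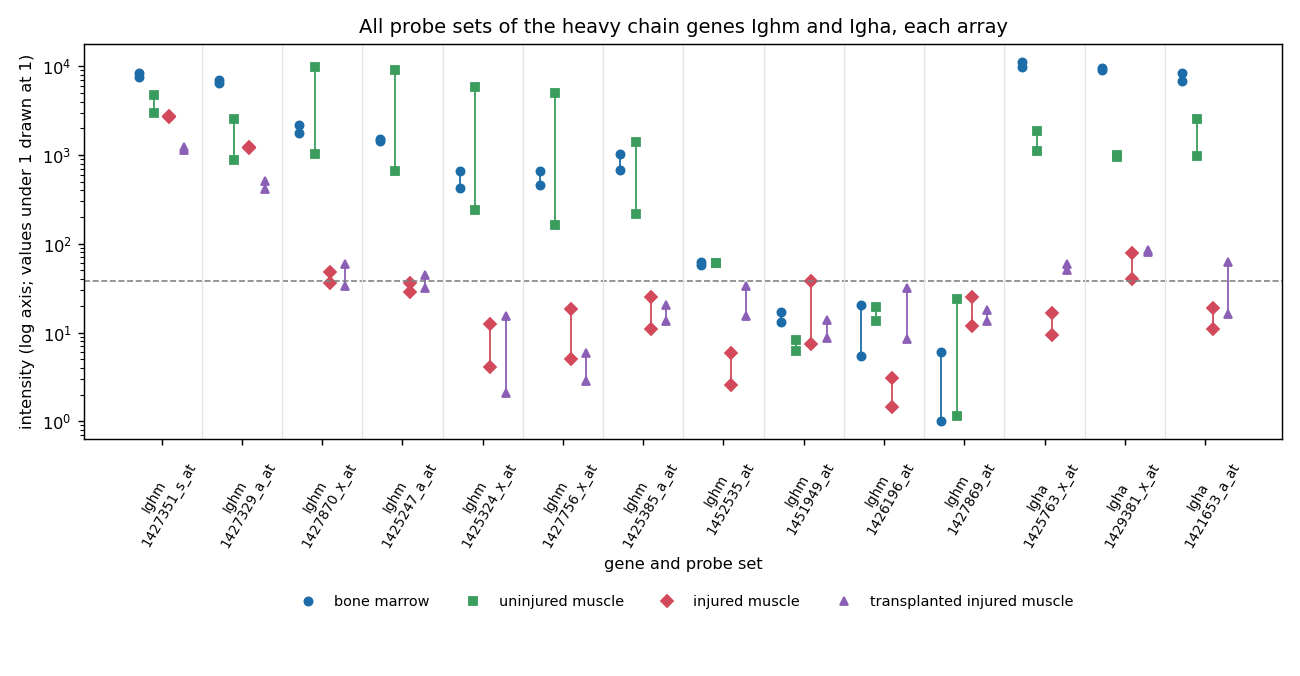
Intensity (log axis, values under 1 drawn at 1) of all 11 Ighm and 3 Igha probe sets, 1 point per array, with a line between the 2 arrays of a group and a dashed line at 38.4. The first 2 Ighm probe sets stay above 400 on the 4 injured arrays, the next 5 lie under 100 there and spread 6.61- to 30.7-fold between the uninjured muscle arrays, and the 3 Igha probe sets are highest in bone marrow.

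Jchain, on chromosome 5, encodes the joining chain of polymeric IgM and IgA. Its probe set, 1424305_at, measured 4052 and 3439 in marrow, 2221 and 2883 in uninjured muscle, 7.05 and 3.82 in injured muscle, and 20.0 and 23.2 in transplanted injured muscle. Jchain was at least 59.8-fold lower than in uninjured muscle in injured muscle (limma log2 fold change -8.09, SE 0.34, adjusted p = 0.000122) and at least 59.8-fold lower in transplanted injured muscle (adjusted p = 0.000135). Between uninjured muscle and bone marrow the log2 difference was -0.56 (SE 0.34) and did not pass (limma adjusted p = 0.419). Jchain in uninjured muscle was 1.47-fold under its marrow level and Igha 7.31-fold under its own, and whether these changes differ was not tested.

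Counted over the 9 genes, each by its brightest probe set, most had lower levels in injured than in uninjured muscle. In injured against uninjured muscle 7 of 9 fell (all but Cd37 and Ighm) and 0 rose, where 15.1% of the 9506 named genes tested were lower and 8.77% higher. The median log2 fold change of the 9 was -5.83, and it was -0.25 over all named genes tested. With every value under 38.4 raised to it the medians were -3.02 and -0.17. In transplanted injured against uninjured muscle 8 of 9 fell (all but Cd37) and 0 rose, where 20.8% of genes were lower and 10.5% higher. The median of the 9 was -3.56 against -0.31 over all named genes. The comparisons share the uninjured muscle arrays, and both cross the difference in the Gapdh 3′ to 5′ ratio given above.

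Uninjured muscle against bone marrow compared the sorted cells of resting tissue with those of the marrow. Of the 9 genes 3 fell (Cd79b, Ighm and Igha) and 0 rose, where 1.4% of named genes were lower and 5.85% higher. The median of the 9 was -1.32, against -0.06 over all named genes. The count of 3 depends on single arrays: it was 1 without either bone marrow array and 6 without replicate 2 of uninjured muscle.

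Against bone marrow, the source tissue of a transplant, 8 of 9 genes were lower in transplanted injured muscle (all but Cd37) and 0 higher, where 19.5% of named genes were lower and 12% higher. The same 8 were lower in injured muscle of untransplanted mice, where 17.2% of genes were lower and 12.6% higher. The medians of the 9 were -5.78 and -7.56, against -0.32 and -0.27 over all named genes. With values under 38.4 raised to it the medians of the 9 were -5.57 and -5.19. The 2 comparisons share the bone marrow arrays.

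Transplanted against untransplanted injured muscle addressed whether the transplant altered the injured tissue's cells. By limma 0 of the 9 genes passed in either direction, where 0.274% of named genes were lower and 0.0421% higher. At an unadjusted limma p under 0.05, Pou2af1, Igha and Jchain were higher, where 2.41% of named genes were, and Ighm was lower, where 7.35% were. Of these 4, Pou2af1 and Jchain were under 38.4 in both groups and get no fold. Igha was at least 1.38-fold higher in the transplanted group (limma adjusted p = 0.124), with 50.7 and 58.5 against 16.5 and 9.34. The other Igha probe sets gave 1.44-fold, with limma adjusted p = 0.857, and overlapping groups (61.6 and 16.2 against 10.9 and 18.9), with adjusted p = 0.84. Ighm was 2.28-fold lower (limma log2 fold change -1.19, SE 0.25, adjusted p = 0.125), with 1216 and 1131 against 2717 and 2645. Its next brightest probe set gave -1.39 (limma adjusted p = 0.325). The other 9 Ighm probe sets were under 100 on all 4 injured arrays, so the lower Ighm level rests on 2 probe sets. For the single brightest probe set of Igha and that of Ighm the groups did not overlap. Under alternative settings Igha, as higher, and Ighm, as lower, were the only members above 38.4 in either group that passed. Any other member in the alternative counts was under 38.4 in both groups. The count was 3 without replicate 1 or without replicate 2 of uninjured muscle, arrays outside the comparison that enter its estimate of spread, and 5 with array weights.

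**Figure D3:**
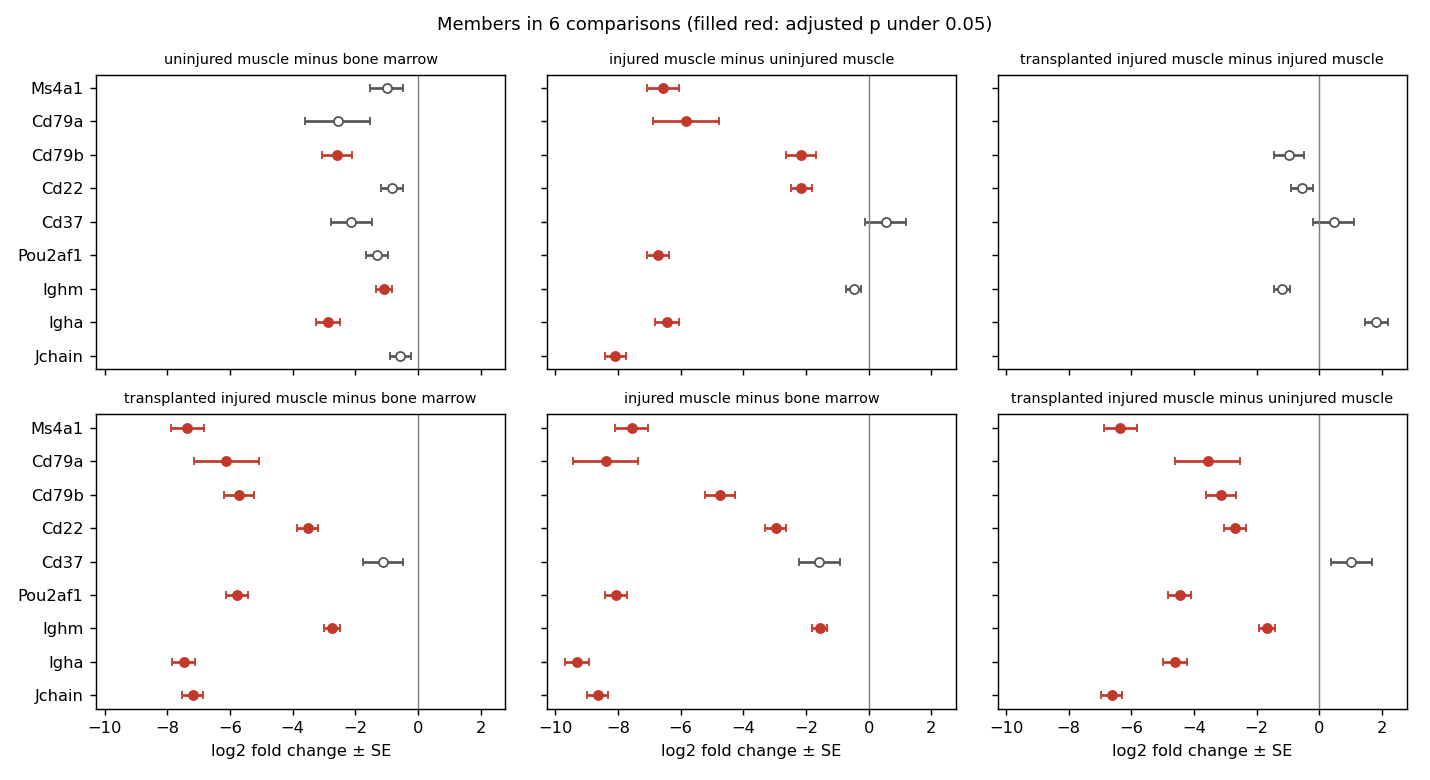
Log2 fold change ± SE from limma for the 9 genes in the 6 comparisons (8 arrays, 2 per group), with filled red points where the adjusted p is under 0.05. Genes under 38.4 in both groups are left out, and values against a group under 38.4 depend on the pseudocount of 4. The 4 comparisons of an injured with an uninjured group hold 7 to 8 red points each, and transplanted against untransplanted injured muscle holds 0.

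Other genes of the B cell pathway were counted from 6 lists. Among genes of the B cell receptor co-receptors and signalling, 18 of 19 were tested, and in injured against uninjured muscle 6 rose and 5 fell. Over all named genes 8.77% rose and 15.1% fell. The list's median was 0.56 against -0.25 over all named genes. Cr2, the complement receptor CD21, fell at least 14.5-fold (609 ± 19.7 to 4.77 ± 0.65, SD, n = 2; limma adjusted p = 0.000162). Blk, a B cell kinase of the Src family, fell at least 14.7-fold (limma adjusted p = 0.00212), a bound of 8.25 from replicate 1 and 26.3 from replicate 2 of uninjured muscle. Pik3ap1, an adaptor to PI3 kinase that myeloid cells also use, rose from 39.7 ± 24.3 to 725 ± 43.3 (SD, n = 2; limma adjusted p = 0.00249). These rises and falls stand beside 7 falls and 0 rises among the 9 genes. In uninjured muscle against bone marrow 1 rose and 1 fell, where 5.85% of named genes rose and 1.4% fell. Fcgr2b, the inhibitory Fc receptor of B and myeloid cells, rose from 660 ± 286 to 2826 ± 472 (SD, n = 2; limma adjusted p = 0.00511). The phosphatase gene Ptpn6 fell (limma adjusted p = 0.00757).

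Of 15 tested B cell transcription factors, 0 rose and 6 fell in injured against uninjured muscle, where 8.77% of named genes rose and 15.1% fell. The list's median was -1.63 against -0.25 over all named genes. Foxo1 fell from 750 ± 91.5 to 135 ± 11.5 and Bcl11a from 200 ± 69.1 to 47.7 ± 1.35 (SD, n = 2; limma adjusted p = 0.00203 and 0.0192). In transplanted injured muscle against uninjured muscle 8 fell, where 20.8% of named genes fell. Among the 8 was Irf4, a regulator of plasma cell formation, from 675 ± 401 to 103 ± 20.8 (SD, n = 2; limma adjusted p = 0.00514). In uninjured muscle against bone marrow 2 fell, Irf8 and Bcl11a (limma adjusted p = 0.0117 and 0.044), where 1.4% of named genes fell. Spib, which plasmacytoid dendritic cells also express, was 2459 ± 116 in bone marrow and fell to 73.2 ± 21.7 in injured muscle (SD, n = 2; limma adjusted p = 0.00197).

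Of 20 mature B cell surface and homing genes, 3 rose and 6 fell in injured against uninjured muscle, with a median of -1.03 against -0.25 over all named genes. In transplanted injured against uninjured muscle 4 rose and 11 fell, with a median of -1.48 against -0.31. Over all named genes 8.77% rose and 15.1% fell in the former comparison, and 10.5% rose and 20.8% fell in the latter. Fcer2a, the low-affinity IgE receptor CD23 of mature B cells, fell at least 6.25-fold in both (limma adjusted p = 0.00113 and 0.000963), a bound of 4.04 or 9.69 from single uninjured arrays. Cd24a fell from 2622 ± 353 to 371 ± 7.47 in injured muscle (SD, n = 2; limma adjusted p = 0.0009). Ms4a4c, a relative of Ms4a1, rose from 1455 ± 234 to 5443 ± 87.4 (SD, n = 2; limma adjusted p = 0.00135), while Ms4a1 itself fell at least 43.7-fold. Tnfrsf13c, the BAFF receptor that mature B cells need to survive, was at least 14.9-fold lower in injured muscle than in bone marrow (limma adjusted p = 0.000132).

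Of 8 tested genes of other immunoglobulin chains, out of 17 with a probe set of their own, 3 fell and 0 rose in injured against uninjured muscle. Over all named genes 15.1% fell and 8.77% rose. All 8 had passed the filter in bone marrow, and Ighg3, Igkv15-103 and Igkv6-14 were under 38.4 on every other array, so their calls against bone marrow are not read as a result. The light chain variable gene Igkv8-30 was 2412 ± 237 in bone marrow, 1377 ± 561 in uninjured muscle, 16.9 ± 0.74 in injured muscle and 36.8 ± 1.72 in transplanted injured muscle (SD, n = 2). Ighv14-2 fell at least 12.5-fold in injured against uninjured muscle (limma adjusted p = 0.00202).

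Of 30 plasma cell and secretory genes, 2 rose and 5 fell in injured against uninjured muscle, where 8.77% of named genes rose and 15.1% fell. The list's median of -0.24 stood beside -0.25 over all named genes. Prdm1, which encodes the plasma cell regulator Blimp-1 and is also used by myeloid and T cells, rose from 138 ± 27.0 to 461 ± 41.1 (SD, n = 2; limma adjusted p = 0.00781). Sec11c, a subunit of the signal peptidase, fell from 1219 ± 20.9 to 393 ± 49.7 (SD, n = 2; limma adjusted p = 0.00533), and the chaperone gene Dnajb9 fell from 1842 ± 575 to 306 ± 80.9 (adjusted p = 0.00252). Tnfrsf17, the plasma cell receptor BCMA, was at least 1.61-fold lower in transplanted injured than in uninjured muscle (limma adjusted p = 0.00221).

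Of 9 tested B precursor genes, 4 fell and 0 rose in uninjured muscle against bone marrow. Among the 4 were Dntt, Flt3 and Vpreb1, which were above 38.4 on all arrays of both groups. Over all named genes 1.4% fell and 5.85% rose. Igll1 and Rag1 passed the filter through bone marrow and were under 38.4 on every other array. Any call of theirs against bone marrow, also within the count of 4, is therefore not read as a result. The list's median was -2.40 against -0.06 over all named genes. With values under 38.4 raised to it the list's median was -1.55. Dntt, which adds bases at immunoglobulin gene junctions in precursors, fell from 4068 ± 50.6 to 344 ± 144 (SD, n = 2; limma adjusted p = 0.00325). Vpreb1, part of the surrogate light chain, fell from 707 ± 417 to 51.1 ± 12.0 (SD, n = 2; limma adjusted p = 0.0197). In injured against uninjured muscle 1 of the 9 fell, Dntt, at least 7.84-fold (limma adjusted p = 0.00213), where 15.1% of named genes fell. In transplanted against untransplanted injured muscle 0 genes of any of the 6 lists passed, by limma in either direction.

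**Figure D4:**
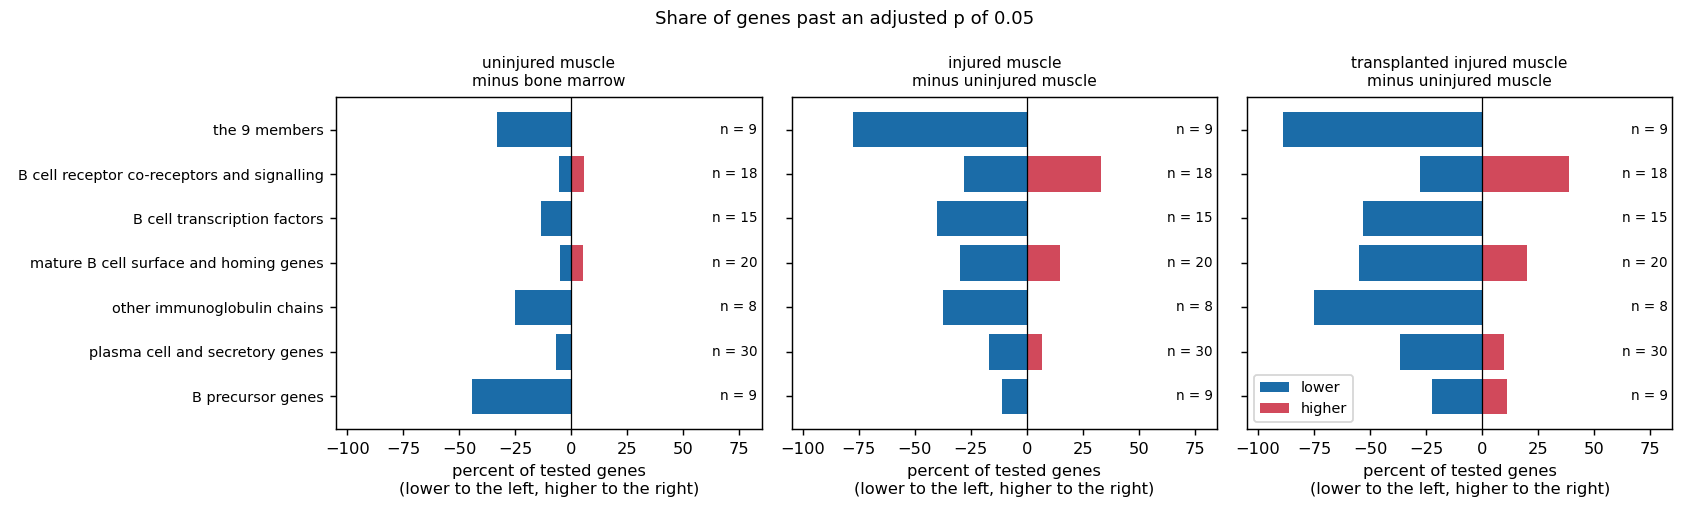
Percent of tested genes past an adjusted p of 0.05 (limma), lower to the left and higher to the right, for the 9 genes and the 6 pathway lists in 3 comparisons, with the number of genes tested as n. The 9 genes hold 3, 7 and 8 falls and no rise, while the list of co-receptors and signalling holds 6 and 7 rises in the comparisons of injured with uninjured muscle. In uninjured muscle against bone marrow, the falls drawn for other immunoglobulin chains are Ighg3 and Igkv15-103, which are not read as a result. The bar of B precursor genes there may hold a call of Igll1 or Rag1, which is not read either.

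Markers of other cell types moved beside the 9 genes. The summed intensity of 8 B cell markers, 7 of them members, was 21188 to 25878 in bone marrow, 7494 to 12240 in uninjured muscle, 3675 to 4111 in injured muscle and 2417 to 2576 in transplanted injured muscle. On the 4 injured arrays 4 of the 8 (Ms4a1, Cd79a, Pou2af1 and Pax5) were under 38.4, and Pax5 was under it on all 8 arrays. Ighm, which is in this sum, measured 1131 to 2717 there. The sum of 7 plasma cell markers, with Jchain and Igha among them, was 16654 to 17205, 6064 to 7398, 2282 to 2307 and 1699 to 1998 in the same order of groups. Its fall was mostly that of these members. Igha had group means of 10461 in marrow, 1474 in uninjured muscle and 12.9 in injured muscle, and Jchain had 3745, 2552 and 5.44. Xbp1 had 2286, 2259 and 1661, and Prdm1 rose from 58.7 to 138 and 461. Sdc1, Derl3 and Tnfrsf17 had group means of 193 or less and were lower in injured than in uninjured muscle. The sum of 10 monocyte and macrophage markers ran the other way, with 8307 to 9855 in bone marrow, 26055 to 43322 in uninjured muscle, 94362 to 102949 in injured muscle and 88199 to 90825 in transplanted injured muscle, and none of them was under 38.4 on any array.

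Some other lymphoid and myeloid sums were lower on the injured arrays as well. The 10 T cell markers summed to 5355 to 5403 in bone marrow, 2462 to 4381 in uninjured muscle, 674 to 738 in injured muscle and 429 to 454 in transplanted injured muscle. The 8 neutrophil markers summed to 41371 to 51366, 17123 to 30473, 386 to 399 and 635 to 711 in the same order, and 6 of them (Ngp, Camp, Ltf, Mpo, Elane and Lcn2) were under 38.4 on both arrays of injured muscle. The 10 markers of plasmacytoid dendritic cells, a type that shares Spib with B cells, summed to 12198 to 12439, 2220 to 3706, 7027 to 7185 and 7466 to 8242. Against bone marrow 4 of these 10 fell in uninjured muscle and 5 in each injured group. Of named genes 1.4% fell in uninjured, 17.2% in injured and 19.5% in transplanted injured muscle. In the same order 0, 1 and 2 of the 10 rose. In injured against uninjured muscle 3 of the 10 rose and 2 fell. Among these rises Bst2, an interferon-induced gene, went from 215 ± 175 in uninjured to 2526 ± 175 in injured muscle (SD, n = 2; limma adjusted p = 0.00306). The 7 natural killer cell markers summed to 3518 to 4244 in marrow, 1236 to 1576 in uninjured muscle, 904 to 1125 in injured muscle and 4213 to 4221 in transplanted injured muscle. Fibroblast markers (6) summed to 7146 to 28651 in uninjured muscle, the group with the widest spread between its arrays, and to 125 to 294 in bone marrow, 19401 to 19494 in injured muscle and 3608 to 3902 in transplanted injured muscle. Endothelial (6) and muscle fibre (7) markers were highest in uninjured muscle, with sums of 5815 to 10058 and 3015 to 5055, and the 3 erythroid markers summed to 506 or less on every array. The part of these other cells in the members' levels was not tested.

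**Figure D5:**
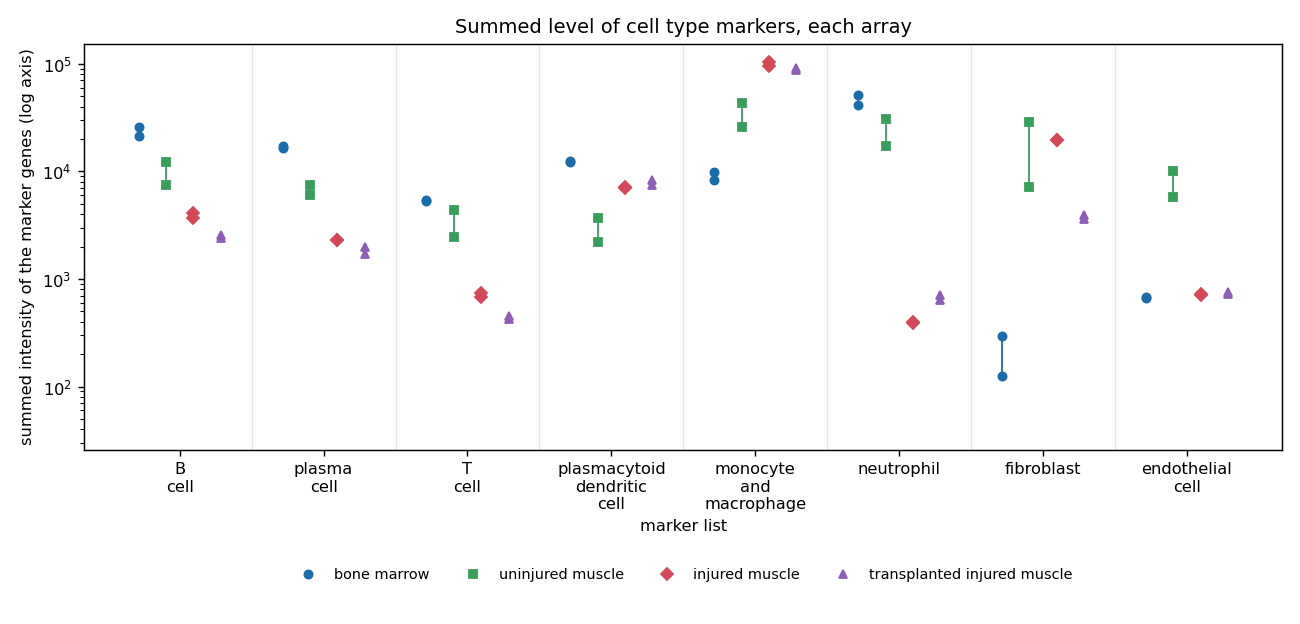
Summed intensity (log axis) of the marker genes of 8 cell types, 1 point per array, with a line between the 2 arrays of a group. B cell, plasma cell, T cell and neutrophil sums are lower on the 4 injured than on the 4 uninjured arrays, and monocyte and macrophage sums are higher. The B cell and plasma cell sums include members.

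The genes most like a member across the 8 arrays were taken by Pearson's correlation of log2 values among 8375 genes, as a description over arrays that share their groups and their scaling. For Jchain they were Igkv8-30 (0.997), Ube2r2 (0.997), Snhg1 (0.993), Prr13 (0.993) and Zbtb18 (0.992). For Ms4a1 they were Zcchc7 (0.995), the neutrophil granule gene Ngp (0.995), Celsr1 (0.993), Nop10 (0.993) and Slc25a37 (0.993). For Cd79a they were Cops8 (0.995), the T cell receptor segment Trbv1 (0.987), Cherp (0.986), Itpr3 (0.978) and Itgb7 (0.977). No member was among the 5 genes most like Jchain, Ms4a1 or Cd79a, the members for which this was computed.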

How the data were processed

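RNA of sorted CD45+/Sca1+ cells was hybridised to Affymetrix Mouse430A arrays, 1 per sample. The deposited linear intensities, 1 for each probe set, had been scaled by the authors to a trimmed mean of about 250 (checked on the table, with 2% left out at each end). The submitters' processing notes name GCOS; the probe summary and background correction were not stated there. Of 22690 probe sets, 64 controls were left out. Names came from the platform annotation (20380 probe sets with 1 gene, 691 with several, 1555 with none), updated through gene identifiers for 20351.

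Values under 1 were set to 1, log2(value + 4) was taken, with 4 the 10th percentile, and a probe set was tested where 2 or more arrays reached the 40th percentile, which kept 16289. In limma 3.58.1 (R 4.3.3) 1 mean per group was fitted on all 8 arrays, with 4 residual degrees of freedom and an intensity trend. Tests were two-sided, p-values were adjusted by Benjamini-Hochberg over all 16289, and calls were made at 0.05. Precision is limited by the number of arrays, and a log2 fold change had a median SE of 0.45. A gene is represented by its probe set of highest mean.

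All members are named. Of each pathway list the up to 3 genes of smallest adjusted p under 0.05 and without overlap between groups could be named, of the marker lists their sums, and for likeness the 5 highest correlations with Cd79a, Ms4a1 and Jchain among tested genes whose highest group mean reached the median of all values. The members, the lists and the tests were chosen with earlier results of these data known. The replicate numbers were not taken as pairs, since deviations of same-numbered arrays correlated at -0.0317 to 0.0031 for 5 pairs of groups. For the remaining pair, bone marrow with uninjured muscle, they correlated at 0.313, which is no reason against pairing there. The source of that correlation was not tested, and a replicate block was fitted as an alternative. Alternatives were other scalings, pseudocounts, filters, variance models, arrays in the fit, a replicate block, the mean of all probe sets, and leaving out each array.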

Additional observations from a re-analysis of the deposited data

How the results depend on the processing

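The 9 genes were refitted under 19 alternatives, 8 of which left out an array. The log2 fold changes of the members kept their direction and call in 162 of 171 values for injured against uninjured muscle, in 167 of 171 and 166 of 171 for transplanted and untransplanted injured muscle against bone marrow, in 161 of 171 for transplanted injured against uninjured muscle, in 150 of 171 for uninjured muscle against bone marrow, and in 88 of 95 between the injured groups (5 genes above 38.4 in at least 1 group).

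For uninjured muscle against bone marrow, the count of 3 members became 1 with array weights and 1 with only the 4 arrays compared, and it ranged from 1 to 6 when arrays were left out. For transplanted against untransplanted injured muscle, the count of 0 became 1 with a pseudocount of 1, 5 with array weights, 1 with only the 4 arrays compared and 1 with the mean of all probe sets, and it ranged from 0 to 3 when arrays were left out. Left-out ranges were 5 to 8 for injured against uninjured muscle, 7 to 8 for transplanted injured against uninjured muscle, and 8 to 9 for each injured group against bone marrow. The only values that changed sign were those of Cd37 against uninjured muscle without its replicate 1: -0.59 for injured muscle, with 1.70 without replicate 2, and -0.13 for transplanted injured muscle, with 2.16 without replicate 2. The cause was not tested.

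Some of the single calls behind these counts were lost or gained as follows. The Ighm call in uninjured muscle against bone marrow was lost in 13 of the 19 alternatives, with adjusted p from 0.0524 to 0.993. That of Cd79b was lost in 4, with adjusted p from 0.0577 to 0.105. The Cd79a call in transplanted injured against uninjured muscle was lost in 7, with adjusted p from 0.0578 to 0.165. Cd37 gained a call as lower in 1 alternative for uninjured muscle against bone marrow, and in 4 and 3 for injured and transplanted injured muscle against bone marrow. Against uninjured muscle each injured group gained 1 call, without replicate 2 of uninjured muscle, and there Cd37 was higher (1.70 and 2.16). Cd22 lost its call in all 4 comparisons of an injured with an uninjured group when the mean of its probe sets was used. Between the injured groups Ighm gained a call as lower with array weights and with only the 4 arrays compared. Igha gained a call as higher with array weights. The member called with a pseudocount of 1, and that called with the mean of all probe sets, was under 38.4 in both groups. The remaining calls with array weights were of such genes too.

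With the replicate block the counts were 2 for uninjured muscle against bone marrow, 7 for injured against uninjured muscle, 0 between the injured groups, and 8 in each of the other comparisons, and Ighm in uninjured muscle against bone marrow was the only member that lost its call (adjusted p = 0.0524). Median centring of the arrays moved the median of all tested probe sets from -0.03 to -0.21 for uninjured muscle against bone marrow and from -0.19 to 0.09 for transplanted injured against uninjured muscle. It moved the share of higher genes among those called from 36.7% to 47% for injured against uninjured muscle and from 33.6% to 50% for transplanted injured against uninjured muscle, and quantile normalization moved it from 13.3% to 25% between the injured groups. Without replicate 2 of uninjured muscle, 1870 probe sets were lower in uninjured muscle than in bone marrow, against 204 with all arrays.

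Groups of 2 arrays, values near or under 38.4 on the injured arrays, immunoglobulin probe sets of uncertain assignment, and the uneven RNA integrity of uninjured and injured arrays limit what these values can show.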

Other observations

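A further 13 probe sets were annotated to several immunoglobulin genes at once and so belong to no member: 4 heavy chain, 8 kappa and 1 lambda. The 3 kappa probe sets that include the constant region measured 2236 to 10594 on the 4 uninjured arrays and 3.09 to 72.6 on the 4 injured arrays. Bone marrow had 1688 and 819 for the lambda probe set, uninjured muscle had 203 and 1112, and the 4 injured arrays had 1.99 to 10.7. The injured and uninjured arrays did not overlap in these 4 probe sets, whereas the 4 heavy chain probe sets were at 40.8 or less on every array.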
